A study of Homo sapiens with 6 samples.

Results

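The expression of 10 telomere and ALT-related genes was examined in SaOS2 (SaOS-2) osteosarcoma cells before and after induction of the CDK inhibitor p21. The genes were listed by name, with no threshold on their values: ATRX, DAXX, TERT, TERF1, TERF2, TERF2IP, POT1, ACD, TINF2 and PML. All 10 were found by symbol among the 23228 gene names of the table, and 9 of them passed the filter on low values that 13255 genes passed. The exception was TERT. SaOS2 cells with a Tet-inducible p21 vector were left untreated (p21 OFF, 3 libraries) or were given 1 μg/ml doxycycline for 24 h (p21 ON, 3 libraries), and poly(A) RNA was sequenced. Both groups carry the vector and lack RB function, cells without the vector that received doxycycline were not analysed here, and the drug and p21 therefore cannot be told apart. Whether the line is 1 clone is not given in the sources used here. The labels number the replicates without saying that they came from separate cultures, so p-values measure the spread between these libraries.

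Human telomeres end in tandem TTAGGG repeats that are bound by shelterin, a complex in which TRF1 (TERF1) and TRF2 (TERF2) grip the double-stranded repeats, POT1 binds the single-stranded overhang, and TIN2 (TINF2), TPP1 (ACD) and RAP1 (TERF2IP) join and extend these contacts. Telomeres shorten at each division unless telomerase, whose catalytic subunit is TERT, adds repeats or a recombination-based pathway called alternative lengthening of telomeres (ALT) copies them. SaOS-2 is a known ALT line. ALT tumours often lack the chromatin remodeller ATRX or its partner DAXX, which together place histone H3.3 at telomeres, and their telomeres gather in nuclear bodies built on the PML protein.

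The libraries held 12795490, 20914151 and 21975045 reads on genes with p21 OFF and 13440402, 12918390 and 16630552 with p21 ON. Values are normalized counts, which are reads on a gene divided by the DESeq2 size factor of the library. CDKN1A, which encodes p21, had 1257, 1187 and 1355 normalized counts with p21 OFF and 40470, 43863 and 46739 with p21 ON, so the induced gene followed the labels. Its log2 fold change was 5.11 ± 0.07 (standard error, n = 3 per group; adjusted p = 1.12e-19, limma with Benjamini-Hochberg adjustment). Reads of the vector and of the cells' own gene are counted together.

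The cells showed the osteoblast markers ALPL, SPARC, COL1A1, SP7 and RUNX2 at group means between 3403 and 37302 normalized counts, and IBSP at 129 ± 8.66 with p21 OFF and 99.0 ± 3.20 with p21 ON (± SD of 3 libraries). Of the other osteoblast markers, COL1A2 and SPP1 reached at most 4.87 and 2.96 normalized counts, and BGLAP was listed at 0 in every library. Summed over the 10 osteoblast markers, libraries held 73276 to 77785 normalized counts. The summed markers of leukocytes were at 7.31 to 17.5 and those of endothelial cells at 67.3 to 106, of which VWF was the most abundant. VWF rose by 0.50 and IBSP fell by 0.38 on the log2 scale with p21 ON (adjusted p = 0.0333 and 0.0264, limma), both were called by edgeR (adjusted p = 0.0259 and 0.0346) and neither by DESeq2 (adjusted p = 0.0736 and 0.0951), and their part in the results was not tested. The 5 epithelial markers summed to 317 to 398, nearly all from EPCAM, while KRT14 and KRT19 were listed at 0. RB1, whose function SaOS-2 cells have lost, had 497 to 697 normalized counts, and a count per gene does not show which exons were read. In bulk RNA a change in the number of cells of a type and a change in RNA per cell cannot be told apart.

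Transcripts of all 6 shelterin genes were present in every library, and none of them was called changed after p21 induction. In GRCh37, TERF1 lies at chr8:73921091-73960358, TERF2 at chr16:69389470-69442474, TERF2IP at chr16:75681671-75795770, POT1 at chr7:124462440-124570037, ACD at chr16:67691415-67694713 and TINF2 at chr14:24707492-24711869. TERF1 and TERF2IP are on the plus strand and the others on the minus strand. TERF2IP, the gene of RAP1, was the most abundant member of the complex, with 2857, 2422 and 2385 normalized counts with p21 OFF and 2335, 2497 and 2458 with p21 ON. p21 OFF replicate 1 stood above the others, and the groups overlapped. The log2 fold change was -0.07 (95% interval -0.21 to 0.08, adjusted p = 0.513, limma). Without p21 OFF replicate 1, the high library, it was 0.02.

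TRF2 and TRF1 are related proteins that bind the same duplex repeat. TERF2 had 720, 702 and 694 normalized counts with p21 OFF and 724, 707 and 780 with p21 ON. TERF1 had 251, 269 and 293 with p21 OFF and 250.3, 278 and 286 with p21 ON. For both genes the groups overlapped, although the highest TERF2 value was a p21 ON library. The log2 fold change of TERF2 was 0.06 (95% interval -0.08 to 0.21, adjusted p = 0.550, limma). That of TERF1 was 0.0032 (95% interval -0.20 to 0.20, adjusted p = 0.985, limma). The ratio of TERF2 to TERF1 in normalized counts per kb of canonical transcript was 2.91 ± 0.27 with p21 OFF and 3.02 ± 0.19 with p21 ON (± SD of 3 libraries; exact two-sided permutation test on log2 ratios, p = 0.6). Per kb of all exons the ratio was 7.29 and 7.59, so its size depends on the length used, but in both the balance of the TRF transcripts shifted by less than its spread.

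POT1 and ACD encode the subunits that cover the single-stranded overhang, and TPP1 also recruits telomerase where the enzyme is present. POT1 had 587, 584 and 591 normalized counts with p21 OFF and 596, 599 and 536 with p21 ON. The p21 OFF values of POT1 had an SD of 3.19, and the p21 ON group held both the highest and the lowest library. ACD had 570.2, 625 and 545 normalized counts with p21 OFF and 568, 587 and 639 with p21 ON, with overlapping groups. The log2 fold changes were -0.03 for POT1 (95% interval -0.18 to 0.13, adjusted p = 0.825, limma) and 0.04 for ACD (95% interval -0.12 to 0.21, adjusted p = 0.713, limma).

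TINF2, the gene of the hub protein TIN2 that links TRF1, TRF2 and TPP1, came nearest to a difference among the shelterin genes. It had 731, 679.6 and 716 normalized counts with p21 OFF and 630, 651 and 679.4 with p21 ON. Every p21 ON library lay below every p21 OFF library, but the nearest libraries were 0.2 normalized counts apart, and 21.3% of all genes tested showed the same separation downwards and 40.4% in either direction. Its log2 fold change was -0.12 (95% interval -0.27 to 0.03), which did not pass the threshold (adjusted p = 0.237, limma; two-sided exact permutation p = 0.1, the lowest value possible with 3 libraries per group). TINF2 was not called by edgeR (adjusted p = 0.246) either.

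**Figure D1:**
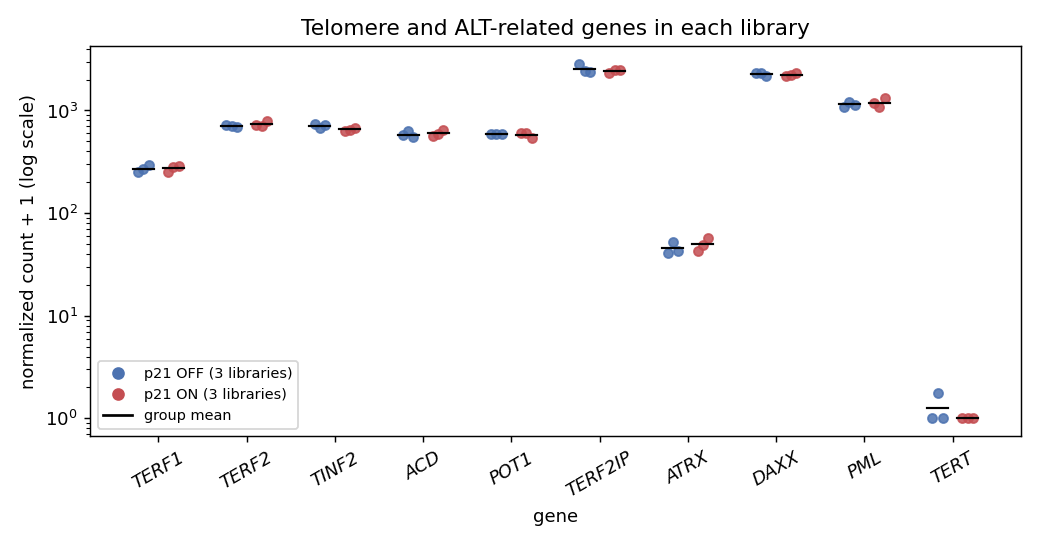
Normalized count plus 1 (log axis) of the 10 genes in each of the 3 p21 OFF (blue) and 3 p21 ON (red) libraries, with the group mean as a black line. The libraries of each gene lie close together, ATRX stands at 40.2 to 56.1 normalized counts and TERT at 0 in all but 1 library.

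ATRX was far less abundant than its partner DAXX in both conditions, and neither changed with p21 beyond the spread between libraries. ATRX, a helicase-like chromatin remodeller on the X chromosome, had 40.2, 50.8 and 42.1 normalized counts with p21 OFF and 41.9, 47.5 and 56.1 with p21 ON. These values rest on 32 to 65 reads per library, for which counting alone gives a coefficient of variation of 12.4 to 17.7%, and the observed coefficient over the 6 libraries was 13.3%. DAXX, the H3.3 chaperone that works with ATRX and is also held in PML bodies, had 2327, 2331 and 2166 normalized counts with p21 OFF and 2157, 2210 and 2324 with p21 ON. DAXX lies at chr6:33286335-33290793 on the minus strand. Groups overlapped for both genes. The log2 fold change of ATRX was 0.12 (95% interval -0.26 to 0.50, adjusted p = 0.656, limma) and that of DAXX was -0.03 (95% interval -0.16 to 0.10, adjusted p = 0.769, limma). Per kb of exon, DAXX exceeded ATRX 382 ± 44.3 times with p21 OFF and 343 ± 36.9 times with p21 ON (± SD of 3 libraries; exact two-sided permutation test on log2 ratios, p = 0.5). With canonical transcript lengths the ratio was 226 with p21 OFF and 203 with p21 ON.

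The low level of ATRX was not shared by most of the genes beside it. ATRX spans 281 kb on the minus strand of the X chromosome in GRCh37, from 76760358 to 77041719, and the 3 nearest protein-coding genes of the table on each side were compared, a choice made after the value of ATRX was seen. Per kb of exon, ATRX had 2.04 ± 0.27 normalized counts (SD, n = 6), above only 1.42% of the 12664 tested genes with a known length. By canonical length ATRX lay above 2.61% of tested genes, and by normalized count without a length above 13.3%. On one side, MAGT1 had 210 ± 10.9, COX7B 293 ± 55.4 and ATP7A 11.3 ± 0.84 normalized counts per kb (SD, n = 6 each). On the other side, CXorf26 (now PBDC1) had 343 ± 36.2 and MAGEE1 67.9 ± 2.27, whereas FGF16 was supported by 2 reads in all libraries together. MAGT1, the nearest of the 6, reached 1326 to 1528 normalized counts per library.

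**Figure D2:**
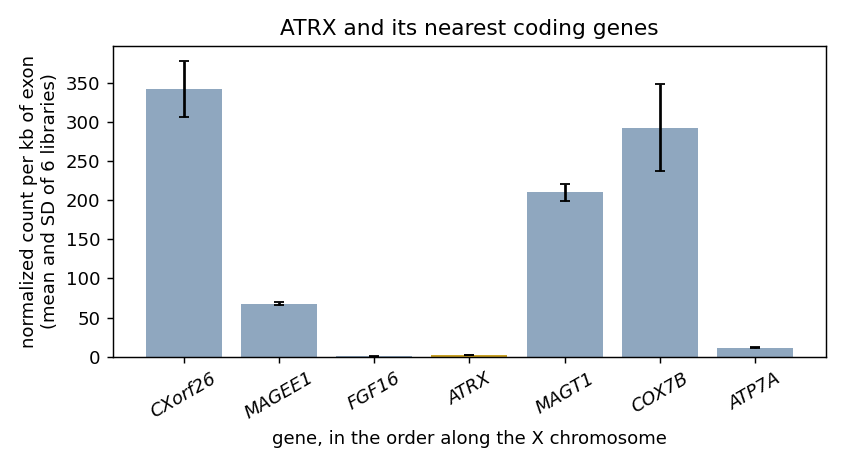
Normalized count per kb of exon (mean and SD of 6 libraries) of ATRX and the nearest protein-coding genes of the table, in their order along the X chromosome. ATRX (gold), at 2.04, is barely visible beside MAGT1 at 210 and COX7B at 293, and FGF16 is lower still.

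PML (chr15:74287014-74340168, plus strand), the scaffold of the nuclear bodies in which ALT telomeres gather, was expressed at 1079, 1222 and 1130 normalized counts with p21 OFF and 1171, 1082 and 1308 with p21 ON. The p21 ON group held the highest library and overlapped the p21 OFF group. Its log2 fold change was 0.05 (95% interval -0.11 to 0.21, adjusted p = 0.655, limma).

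TERT (chr5:1253262-1295183, minus strand), the catalytic subunit of telomerase, was represented by 1 read among 98674030 reads on genes in the 6 libraries. That read was in p21 OFF replicate 2, where it equals 0.781 normalized counts, and TERT was listed at 0 in the other 5 libraries. A count of 0 allows up to 3 reads, which is 2.22 to 3.77 normalized counts depending on the library, so both groups were at or under the floor and no fold change is given. These limits cover counting error only. The telomerase RNA TERC had at most 5.70 normalized counts, but mature TERC carries no poly(A) tail, so poly(A) libraries do not measure it.

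In normalized counts per kb of exon, the order of the 10 genes was DAXX (730 ± 27.2), TERF2IP (564 ± 42.4), ACD (183 ± 11.2), TINF2 (156 ± 8.72), TERF2 (128 ± 5.49), PML (92.0 ± 7.0), POT1 (66.8 ± 2.68), TERF1 (17.3 ± 1.13), ATRX (2.04 ± 0.27) and TERT (0.022 ± 0.054; SD, n = 6 for each). With these lengths the 6 libraries of neighbours in the order did not overlap. With the length of the canonical transcript in place of all exons, TERF2IP (1170 ± 87.9) stood above DAXX (881 ± 32.8), and the values of ACD and TINF2, and of TERF2 and PML, overlapped. DAXX lay above 93.3% of the tested genes per kb of exon and TERF2IP above 90.4%, while TERF1 lay above 17.1%, or 35.3% by canonical length. The other 8 genes kept their places with both lengths.

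Across the 9 genes tested, none was called higher or lower with p21 ON, while 23.2% of all genes tested were called by limma at an adjusted p-value under 0.05. edgeR and DESeq2 likewise called none of the 9, against 23.0% and 19.5% of all genes (8.13% higher and 11.4% lower with DESeq2, 10.6% and 12.4% with edgeR). None had an unadjusted p under 0.05 by limma, edgeR or DESeq2, a level reached by 36.8%, 36.7% and 30.7% of all genes, respectively. By sign, 5 had a positive and 4 a negative log2 fold change, with a median of 0.0032 against 0.0056 for all genes tested. The median of the absolute log2 fold change was 0.05 for these genes and 0.15 for all genes tested, and 58.2% of all genes had a larger absolute change than ATRX, which had the largest of the 9 in this fit. The change of ATRX ranged from 0.02 without p21 ON replicate 3 to 0.22 without p21 OFF replicate 2, and TINF2 had the larger absolute change under TMM scaling, with a pseudocount of 10, and without p21 OFF replicate 1, p21 OFF replicate 3 or p21 ON replicate 3. Leaving out ATRX, the 95% intervals of single genes reached from a fall of 16.8% (TINF2) to a rise of 15.7% (PML), so larger changes lie outside these intervals. For ATRX the interval ran from -16.4% to 41.8%. These intervals describe precision, and a p-value above the threshold does not show that a level was equal in both conditions.

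**Figure D3:**
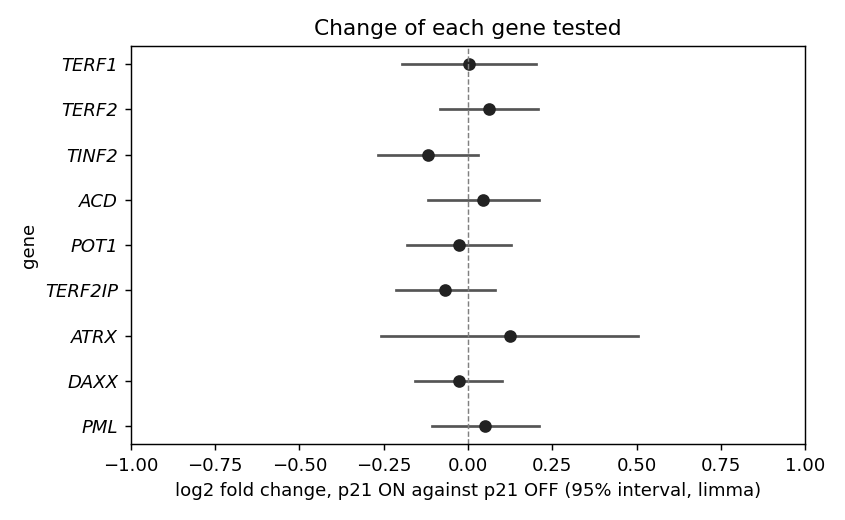
Log2 fold change with its 95% interval (limma, 3 libraries per group) of the 9 genes tested. All intervals cross 0, and the interval of ATRX, from -0.26 to 0.50, is the widest.

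The genes that build telomerase, maintain telomere ends or act in ALT were then read from the same fit, to describe the genes around them. In the telomerase assembly list 12 of 14 genes were tested, and 7 fell and none rose after p21 induction (background 12.7% lower and 10.5% higher). The median log2 fold change was -0.23. WRAP53, which guides telomerase RNA to Cajal bodies, fell most. It had 566, 520 and 498 normalized counts with p21 OFF and 295, 306 and 291 with p21 ON. Its groups were far apart, with a log2 fold change of -0.83 ± 0.08 (standard error, n = 3 per group; adjusted p = 6.01e-07, limma). The genes of the 4 core proteins of the H/ACA RNA particle, which bind TERC and also ribosomal RNA guide RNAs, were among those that fell with all libraries, but of these 4 only GAR1 was still called without p21 ON replicate 1 or without p21 ON replicate 3. GAR1 went from 386 ± 49.9 to 290 ± 8.08 and DKC1 (dyskerin), the most abundant gene of the list, from 3526 ± 297 to 2991 ± 94.6 normalized counts (± SD of 3 libraries), with log2 fold changes of -0.41 (adjusted p = 0.00530, limma) and -0.23 (adjusted p = 0.0154, limma). NHP2 and NOP10 had log2 fold changes of -0.26 and -0.23, and NHP2 was not called by edgeR (adjusted p = 0.0508) or DESeq2 (adjusted p = 0.0622). NHP2 had 745, 595 and 585 normalized counts with p21 OFF and 488, 573 and 537 with p21 ON. The highest of these was p21 OFF replicate 1, and the size of the NHP2 change without that library is not given here. RUVBL2 and RUVBL1, paired ATPases that assemble dyskerin and other complexes, fell by 0.38 and 0.20 on the log2 scale, and RUVBL1 was not called by DESeq2 (adjusted p = 0.0538). The count of 7 became 4 under scaling by library size alone and 3 without p21 ON replicate 1 or without p21 ON replicate 3, and in both of these WRAP53, GAR1 and RUVBL2 were the 3 still called. Over all genes tested, the number called lower went from 1681 to 1194, 888 and 1076 in these runs, respectively.

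In the list of ALT recombination and dissolution genes, 23 of 24 were tested, and 8 fell and 1 rose, which is 39.1% of those tested against 23.2% of all genes. RAD51AP1, which promotes strand invasion in homologous recombination, had 455, 449 and 452 normalized counts with p21 OFF and 150.2, 186 and 148 with p21 ON. This was the largest fall of all genes listed here, with a log2 fold change of -1.49 ± 0.10 (standard error, n = 3 per group; adjusted p = 2.46e-09, limma). FANCD2, a Fanconi anemia protein of stalled forks, fell from 391 ± 11.1 to 165 ± 11.97 normalized counts and BLM, the helicase that dissolves recombination intermediates with TOP3A and RMI proteins, from 391 ± 16.4 to 181 ± 12.7 (± SD of 3 libraries). Their log2 fold changes were -1.24 (adjusted p = 1.07e-08, limma) and -1.10 (adjusted p = 5.16e-08, limma). GEN1, FANCM, CHEK1, RMI2 and TIMELESS were the others that fell, by 1.01, 1.00, 0.43, 0.43 and 0.30 on the log2 scale. TOP3A, the topoisomerase partner of BLM, rose from 846 ± 114 to 1045 ± 13.0 normalized counts (± SD of 3 libraries), a log2 fold change equal to 0.31 (adjusted p = 0.0126, limma), but was not called without p21 ON replicate 1 (adjusted p = 0.0525, limma) or without p21 ON replicate 3 (adjusted p = 0.0523, limma). RMI2 was not called by edgeR (adjusted p = 0.0576) or DESeq2 (adjusted p = 0.144). The median of the list was -0.02, and the 14 genes that were not called lay between -0.11 (RPA1) and 0.21 (ZNF827), among them RAD52, POLD3, SLX4, MUS81 and SMARCAL1 at -0.01, 0.04, 0.05, -0.01 and -0.02.

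Of 16 tested genes of the CST complex and telomere replication, 3 fell and 1 rose, with a median log2 fold change of -0.0061. These are 25% of the list, near the 23.2% of all genes tested. FEN1, the flap nuclease of lagging strands, fell by 0.30, XRCC6 (Ku70) by 0.27 and MRE11A, the nuclease of the MRN complex, by 0.27 on the log2 scale (adjusted p = 0.00393, 0.00330 and 0.0135, limma). RIF1, a regulator of replication timing and break repair, rose by 0.26 on that scale (adjusted p = 0.0135, limma), and was not called without p21 ON replicate 1 (adjusted p = 0.0932, limma). MRE11A was not called without p21 ON replicate 3 (adjusted p = 0.0566, limma). TEN1, whose exons overlap the TEN1-CDK3 readthrough gene on the same strand, was listed at 0 in every library, and whether this comes from the counting was not tested. CTC1 and OBFC1 (STN1), the other CST subunits, had log2 fold changes of 0.16 and 0.09, neither called.

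The list of H3.3 and its chaperones also holds the heterochromatin genes CBX1, CBX3, CBX5 and SETDB1, so its counts are not of H3.3 chaperones alone. In this H3.3 list, 4 of 11 tested genes fell and 1 rose (45.5% called, against 23.2% of all genes). The median log2 fold change was -0.07. H3F3B, which encodes the H3.3 histone that ATRX and DAXX deposit, fell from 9998 ± 919 to 7224 ± 392 normalized counts (± SD of 3 libraries), a log2 fold change equal to -0.47 (adjusted p = 9.89e-05, limma). The table listed H3F3A, the other H3.3 gene, at 0 in every library, and whether this 0 comes from the gene model or the counting was not tested. ASF1B, a chaperone of newly made H3-H4, fell by 0.45 (adjusted p = 0.000124, limma), and the heterochromatin proteins CBX3 and CBX1 by 0.25 and 0.23 on the log2 scale (adjusted p = 0.0176 and 0.0101, limma). UBN1 of the HIRA complex rose by 0.22 (adjusted p = 0.0497, limma), but was not called by edgeR (adjusted p = 0.0569) or DESeq2 (adjusted p = 0.0639). Its log2 fold change ranged from 0.11 without p21 OFF replicate 1 to 0.29 with 1 library left out in turn, and its call was lost without p21 OFF replicate 1 or without any 1 of the p21 ON libraries. CBX3 was not called without p21 ON replicate 1 (adjusted p = 0.0914, limma) or without p21 ON replicate 3 (adjusted p = 0.0851, limma), and without p21 ON replicate 1 the number that fell was 2.

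Among 17 genes of PML nuclear bodies, 1 fell and 1 rose (11.8% called, against 23.2% of all genes), with a median log2 fold change of -0.07. SUMO3, a small modifier that PML carries and binds, fell from 8140 ± 300 to 6814 ± 169 normalized counts (± SD of 3 libraries; log2 fold change -0.26, adjusted p = 0.00407, limma). SP140L, a paralog of the body component SP100, rose by 0.21 on the log2 scale (adjusted p = 0.0494, limma), was not called by DESeq2 (adjusted p = 0.105) and lost its call with any 1 of the 6 libraries left out. Without p21 OFF replicate 2, without p21 OFF replicate 3 and with a replicate block, 1 gene of the list other than SP140L was called higher. For SP100 itself the log2 fold change was -0.05 (adjusted p = 0.615, limma). Among the changed genes named from the 5 lists, exons of WRAP53, NHP2, RUVBL1, GEN1, CHEK1, RMI2, BLM, FANCD2, MRE11A, RIF1, H3F3B, ASF1B, CBX3 and UBN1 overlap a gene annotated on the opposite strand, and those of DKC1, CHEK1, FEN1 and H3F3B a gene on their own strand. The strand setting of the counting is not given in the sources used here, so reads of such a gene and its partner may not be separated. Whether the 10 telomere genes differ from these lists was not tested.

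**Figure D4:**
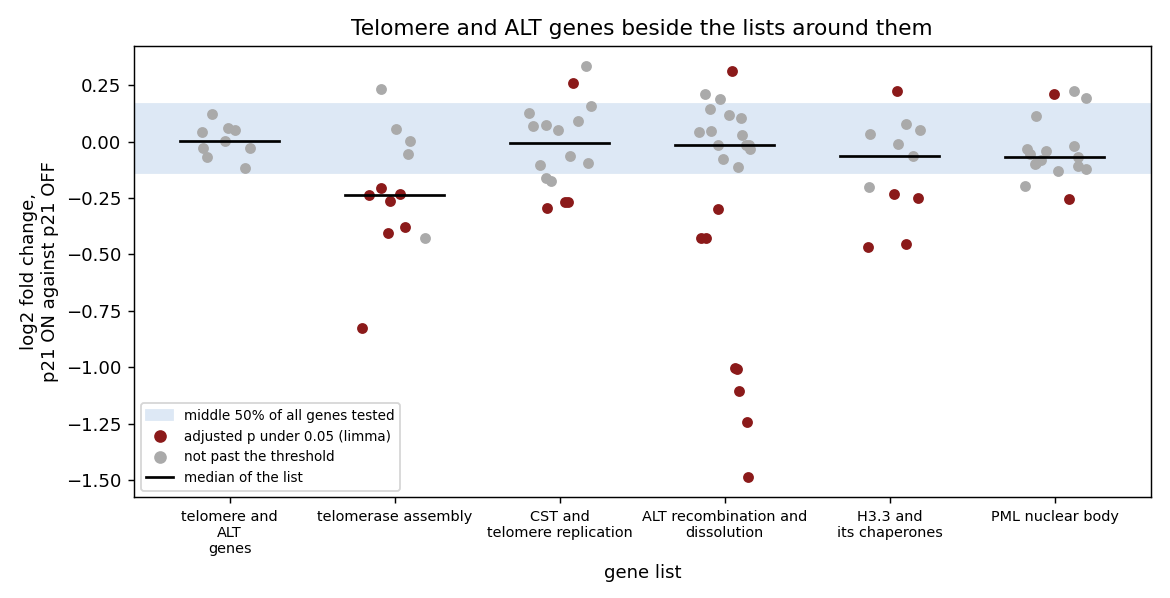
Log2 fold change of each tested gene in the telomere and ALT list and in the 5 lists around it, with genes past an adjusted p of 0.05 (limma) in red, list medians as black lines and the middle 50% of all genes tested as a blue band. None of the 9 telomere and ALT genes is red, while RAD51AP1 at -1.49 and WRAP53 at -0.83 lie well below the band.

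Promoter sequence was compared for the genes that were not called and those that fell, because G1/S genes often carry E2F sites and G2/M genes often carry a CHR near their start. RefSeq windows (GRCh38.p14, 250 bases before to 50 after a start) were used for 5 of the 10 genes, ACD, POT1, TERF2IP, TINF2 and TERT. Windows on the chromosome that carries TERF1 were not used, so the absence of TERF1 does not mean that it lacks a window. PINX1, TNKS, HMBOX1, NBN, WRN and NSMCE2, which were not called, lie on the same chromosome and are missing from the gene counts below. Both strands were searched for E2F letters (TTTCCCGC, TTTGGCGC, TTTGCCGC or TTTCGCGC), present in 3.31% of all 35116 windows, and for CHR letters (TTTGAA or TTCGAA), present in 16.4%. These shares are per window, whereas the counts given next are per gene, and a gene can have several windows, so the shares and counts are not directly comparable. Of the 5 genes, ACD held E2F letters and none held CHR letters. Of 22 genes around them that fell and had a window, 4 held E2F letters and 4 held CHR letters, and of 38 that were not called the numbers were 5 and 4. Letters of either kind were present in 7 of the 22 and in 9 of the 38. RAD51AP1 and BLM, which fell, held none of these exact letters, and near matches were not searched for. Of 4 that rose, none held E2F letters and 2 (RIF1 and UBN1) held CHR letters. The windows of ACD and POT1, which were not called, and of FANCD2 and ASF1B, which fell, are shown 5′ to 3′ with any match in capitals.
ACD, chr16:67660211-67660510, minus strand: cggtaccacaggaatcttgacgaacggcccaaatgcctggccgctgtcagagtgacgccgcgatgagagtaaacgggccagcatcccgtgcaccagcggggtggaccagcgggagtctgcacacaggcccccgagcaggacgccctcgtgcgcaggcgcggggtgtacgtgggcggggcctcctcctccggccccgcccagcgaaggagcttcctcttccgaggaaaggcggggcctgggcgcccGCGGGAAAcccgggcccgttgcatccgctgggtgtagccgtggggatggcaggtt
POT1, chr7:124929776-124930075, minus strand: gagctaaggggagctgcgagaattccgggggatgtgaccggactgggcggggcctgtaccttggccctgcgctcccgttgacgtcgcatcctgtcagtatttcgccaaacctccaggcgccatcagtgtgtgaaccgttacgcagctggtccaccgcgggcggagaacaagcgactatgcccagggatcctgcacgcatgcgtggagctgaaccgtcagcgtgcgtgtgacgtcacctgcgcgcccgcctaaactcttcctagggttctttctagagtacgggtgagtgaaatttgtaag
FANCD2, chr3:10026187-10026486, plus strand: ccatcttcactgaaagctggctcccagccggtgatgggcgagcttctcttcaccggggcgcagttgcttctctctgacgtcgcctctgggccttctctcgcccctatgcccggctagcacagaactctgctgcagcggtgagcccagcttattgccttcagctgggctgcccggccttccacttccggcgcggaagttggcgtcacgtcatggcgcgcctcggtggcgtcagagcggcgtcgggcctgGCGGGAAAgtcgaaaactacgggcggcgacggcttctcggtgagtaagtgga
ASF1B, chr19:14136540-14136839, minus strand: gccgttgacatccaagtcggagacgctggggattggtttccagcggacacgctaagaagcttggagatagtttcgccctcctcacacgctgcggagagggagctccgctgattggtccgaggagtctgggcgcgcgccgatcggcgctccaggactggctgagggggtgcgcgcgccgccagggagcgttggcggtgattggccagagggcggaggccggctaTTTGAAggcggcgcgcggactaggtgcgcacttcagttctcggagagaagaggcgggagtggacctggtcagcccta
ACD and FANCD2 hold the same E2F letters in the reverse orientation, and their log2 fold changes were 0.04 and -1.24. ASF1B holds a CHR match and POT1 neither motif. A match is a run of letters and not a measured binding site.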

How the data were processed

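The authors mapped single-end reads of stranded poly(A) libraries to hg19 with STAR, counted them per gene name with HTSeq and divided them by DESeq2 size factors. The deposited signal is this normalized count, for 23228 gene names in 6 libraries. Tool versions and the strand setting of counting are not given in the sources used here. Exons of TERF2IP, TINF2, ACD, POT1, PML and TERT overlap genes annotated on the opposite strand, and DAXX and TERF2 overlap unnamed genes on their own strand. In every library 100% of values were whole multiples of 1 step (tolerance 0.01 reads), which returned the reads.

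Log2(normalized count + 1) was fitted with limma 3.58.1 (R 4.3.3, eBayes with trend, no covariate) for the 13255 genes whose mean reached 10, and p-values were adjusted over all of them by Benjamini-Hochberg and a threshold of 0.05. The pseudocount shrinks fold changes of genes with few reads. Alternatives were edgeR 4.0.16 and DESeq2 1.42.0 on the recovered reads, where edgeR called 3048 and DESeq2 2539 genes, other scalings, pseudocounts, filters and thresholds, a replicate block and each library left out. Replicates differed by more than counting noise (chi-square per gene 2.71 to 9.28). p21 OFF replicate 1 stood apart, at 8.48 and 9.28 against the other p21 OFF libraries, while every other pair within a group lay between 2.71 and 3.97. Positions and exon lengths are from GENCODE release 44 on GRCh37, the build of hg19. Matching by older symbol was used for 4 list genes. Named in each further list were up to 3 genes with the largest changes in each direction and the most abundant telomerase assembly gene; other names were added after their values were seen. The members, lists and tests were chosen with earlier results of these data known. Some marker genes are not reported here. The fits were tested on simulated data, and the outcome is not reported here.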

Additional observations from a re-analysis of the deposited data

How the results depend on the processing

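Of shelterin genes, ATRX, DAXX and PML, 0 were called under any alternative run or with any library left out, and TERT was not tested. Signs of small changes turned: DAXX (0.016) and POT1 (0.017) under scaling by library size alone, and TERF1 under DESeq2 (-0.0019), edgeR (-0.0016) and TMM scaling (-0.0066). With each library left out, TERF1 ranged from -0.050 to 0.060, TERF2IP from -0.11 to 0.016, POT1 from -0.055 to 0.026, ACD from -0.0034 to 0.10 and PML from -0.021 to 0.12. In the same fits TERF2 ranged from 0.021 to 0.092, DAXX from -0.063 to -0.0044 and TINF2 from -0.15 to -0.092, with no change of sign. An adjusted p under 0.01 left 616 genes higher and 882 lower. Among these, 3 telomerase assembly genes and 2 genes of the H3.3 list were lower. At that level 0 genes were higher in the CST, ALT, H3.3 and PML body lists. Scaling by library size alone called 2034 genes higher and 1194 lower, against 1393 and 1681, and moved the median of all genes to 0.05; it gave 1 telomerase assembly gene higher and 4 lower, 2 CST genes higher and 3 ALT genes higher. No gene of the H3.3 list was higher (0) with DESeq2, edgeR, TMM scaling or no filter. No PML body gene was higher (0) with DESeq2, TMM scaling, no filter or pseudocount 10. Leaving out libraries gave 692 to 1488 genes higher and 888 to 1662 lower. In these fits 0 to 1 telomerase assembly genes were higher and 3 to 8 lower, with 0 to 1 CST and 0 to 2 ALT genes higher. The H3.3 list had 0 to 1 genes higher and 2 to 4 lower, and the PML body list 0 to 1 higher and 1 to 2 lower. The lowest counts of genes came without p21 ON replicate 1 (692 and 888) and without p21 ON replicate 3 (739 and 1076). With canonical transcript lengths the normalized counts per kb were 4.16 for ATRX, 881 for DAXX, 81.4 for TERF1, 241 for TERF2, 1170 for TERF2IP, 148 for POT1, 390 for ACD, 378 for TINF2 and 209 for PML. Same-numbered libraries did not deviate together (correlations -0.06, -0.02 and -0.05). These values cannot show whether same-numbered libraries were cultured or prepared together. A replicate block called 1407 genes higher and 1513 lower. Of the genes named by rule, only SP140L lost its call with the block (adjusted p = 0.0981, limma). The cause of these shifts was not tested. TERT did not pass the filter on low values, and depth limits ATRX, which had 32 to 65 reads per library.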
